A study of Mus musculus with 2 samples.

Results

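The quiescent culture held 174 of the 640 profiled cells, and 28 of them (16.1%, exact 95% binomial interval 11% to 22.4%) carried a cell cycle phase other than G0. They were compared with the 146 cells called G0 in the same culture. Members were chosen by the phase that the authors' deposited per-cell table assigns, which was computed from the RNA of these same cells, so every difference in RNA given here is a description and not a test. The 28 cells comprised 12 called G1, 11 called S and 5 called G2M. The cells were cultured hippocampal neural stem cells, taken from male mice of the C57BL6/J strain at 6 weeks of age. They were sorted singly from 4 gates of autofluorescence and profiled by SORT-seq, a plate method that counts molecules at the 3′ end of polyadenylated RNA. The gates gave 43, 45, 42 and 44 of the 174 quiescent-culture cells. The 16.1% is therefore a share of the cells profiled and not of the culture, and its interval takes no account of the gates. The quiescent culture had received 50 ng/mL of BMP4 with FGF2 and no EGF, and the labels count cells as quiescent after 3 days of it. The activated culture grew in FGF2 and EGF at 20 ng/mL, and a 24 h exit culture had left BMP4 for activation medium with 0.5 ug/mL of noggin, an antagonist of BMP4. Each state was 1 culture, cells are not replicates of it, and the intervals given with values cover counting error only.

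Quiescence, or G0, is a reversible arrest outside the cell cycle, and adult neural stem cells spend most of their time in it. In culture BMP4 holds them there through SMAD proteins, which switch on the Id genes. A cell that divides first licenses its replication origins and copies its DNA in S phase, driven by E2F factors, and then builds a spindle and separates its chromosomes under the control of cyclins and CDK1.

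The phase followed from 3 scores, for S, G2M and G0 genes, and equalled in 640 of 640 cells the largest of the 3, or G1 where all 3 lay below 0. The genes behind the scores are not given in the sources used here. The 5 G2M cells had G2M scores of 0.440 to 0.967, while no G0 cell exceeded -0.0882. The 11 S cells had S scores of 0.182 to 0.546, with a highest S score of 0.0770 among the G0 cells. The 12 G1 cells had no high score of any kind: their G0 scores ran from -0.431 to -0.0153 with a median of -0.0692, just below those of the lowest G0 cells, whose scores began at 0.00354. Within 0.05 units of a boundary lay 4 of 12 G1, 1 of 11 S, 1 of 5 G2M and 10 of 146 G0 cells. A G0 score above 0 was also present in 9 of the 16 S and G2M cells. In the authors' clusters, all 5 G2M cells and 1 S cell fell in cluster 3, which otherwise held mainly 48 h exit cells, while 10 S, 11 G1 and 145 G0 cells shared cluster 1, which held quiescent cells alone.

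**Figure D1:**
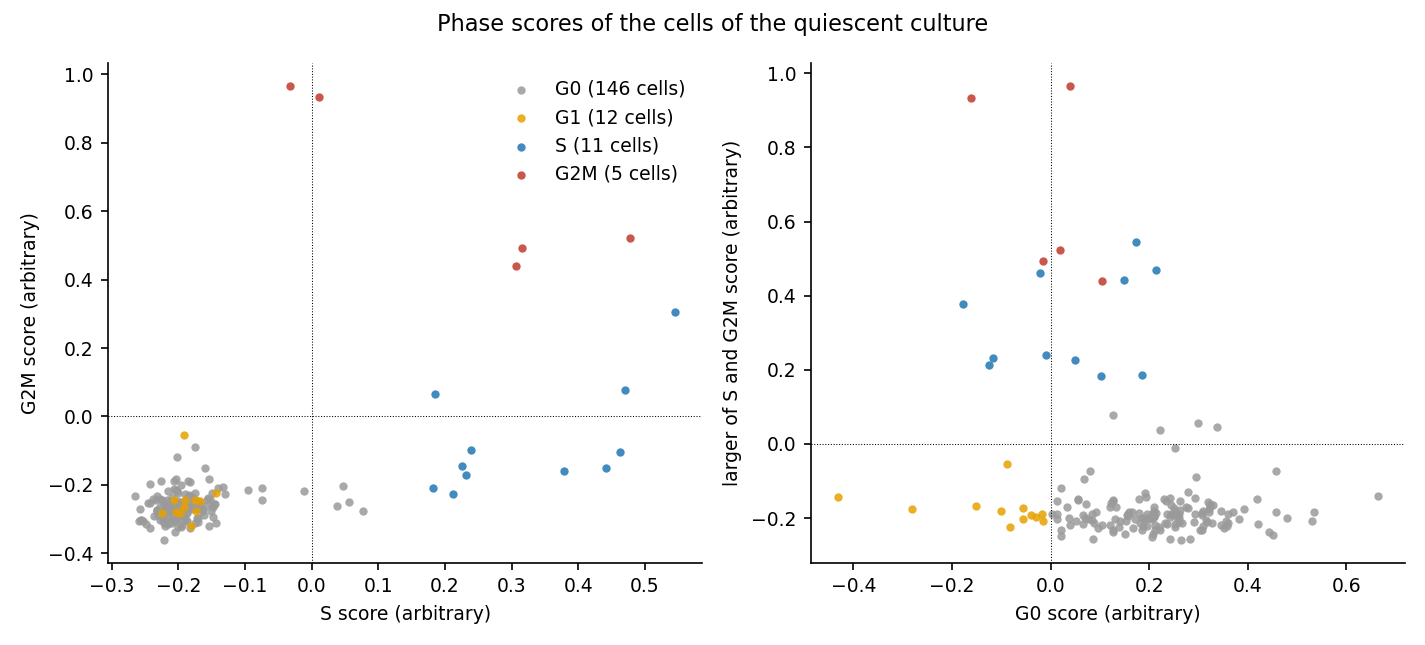
Each point is 1 of the 174 quiescent-culture cells. The left panel plots the G2M score against the S score and the right panel the larger of those against the G0 score, in arbitrary units. S and G2M cells stand away from the G0 cloud, while all but 1 of the 12 G1 cells lie inside it in the left panel. In the right panel the G1 cells stand beside the cloud towards low G0 scores, from -0.431 to -0.0153.

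Summed over cells, the non-G0 group held 740069 transcripts and the G0 group 4075865. Levels are CPM, the group's transcripts scaled to a common total, gene log2 ratios were taken with 10 CPM added, and a gene counted as past the fold at a log2 ratio of 1 in size. Of 5781 genes with at least 100 counts over both groups, 103 (1.78%) were higher past the fold in non-G0 cells and 39 (0.675%) were lower, around a median log2 ratio of 0.02, and 52.5% of the genes lay above 0. With totals scaled by edgeR's TMM factors the split was 90 higher and 57 lower, and with cells thinned to 1 depth it was 100 higher and 106 lower. Taken alone, S cells had 161 genes higher (2.78%) and 159 lower (2.75%), G2M cells 289 (5%) and 385 (6.66%), and both together 164 (2.84%) and 88 (1.52%), on 11, 5 and 16 cells. Of the 103 higher genes, 51 stood in the lists of cycle genes used here, and of the 39 lower genes 0 did. The share of those lists among all 5781 genes was not taken, so these counts show no excess. Cycle genes reached 100 counts largely through the cells in which they were high. Cycle lists are therefore given below as sums over all their listed members. Microglial, vascular and ependymal markers were near 0: the microglial list summed to 13.5 CPM in non-G0 and 15.5 CPM in G0 cells, the endothelial and mural list to 6.76 and 2.70 CPM, and the ependymal list to 12.2 and 5.64 CPM, with no member of the 3 lists reaching 100 counts.

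The 11 S cells carried the RNAs of replication, which were low in G0 cells. The 12 genes of origin licensing, which load the MCM helicase onto DNA, summed to 1660 CPM in S cells (1509 to 1819), against 76.3 CPM in G0 cells, a log2 ratio of 4.44, and stood at 1762 CPM in S cells of the activated culture. In single cells their share of all transcripts was 0.0885% at the lowest, 0.153% at the median and 0.255% at the highest S cell, against a median of 0.00486% in G0 cells, and 8 of 11 S cells lay above all 146 G0 cells. The 31 replication fork genes summed to 2852 CPM in S cells and 333 CPM in G0 cells, and here all 11 S cells lay above every G0 cell. Mcm5, a subunit of the helicase, gave 2, 8 and 16 transcripts in the lowest, median and highest S cell, was seen in 13 of 146 G0 cells and in 0 of 12 G1 cells, and stood at 312 against 6.63 CPM, with a log2 ratio of 4.28. Rrm2, the regulated subunit of the reductase that makes deoxynucleotides, gave 1, 4 and 18 transcripts across S cells and at most 2 in any G0 cell, or 246 against 3.68 CPM. Pcna, the sliding clamp of the polymerases, gave 7, 19 and 53 transcripts across S cells and 0, 2 and 13 across G0 cells, so the groups overlapped. Mcm4 and Mcm6, both of the helicase, stood at 228 against 15.5 CPM and 228 against 9.33 CPM.

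Promoter windows of Mcm5 and Rrm2 are printed to show the letters that stand before their start sites. They had the highest S ratios among the named cycle genes with a promoter entry, with 1 chromosome set aside. Each window runs from 250 bases before to 50 bases after the start, from RefSeq on GRCm38.p6, read 5′ to 3′ on the gene's strand. Capitals mark matches on either strand to an E2F-type site (TTTCCCGC, TTTCGCGC, TTTGCCGC or TTTGGCGC), to TTTGAA, the core of the cell cycle genes homology region, or to CCAAT, the NF-Y box.
Mcm5, chr8:75109259-75109558, plus strand: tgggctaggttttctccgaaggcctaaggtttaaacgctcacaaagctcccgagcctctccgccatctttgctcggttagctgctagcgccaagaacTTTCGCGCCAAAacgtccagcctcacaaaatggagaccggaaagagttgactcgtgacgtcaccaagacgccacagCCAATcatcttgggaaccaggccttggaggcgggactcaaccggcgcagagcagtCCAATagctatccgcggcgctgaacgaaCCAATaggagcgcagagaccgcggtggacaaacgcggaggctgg
Rrm2, chr12:24708004-24708303, plus strand: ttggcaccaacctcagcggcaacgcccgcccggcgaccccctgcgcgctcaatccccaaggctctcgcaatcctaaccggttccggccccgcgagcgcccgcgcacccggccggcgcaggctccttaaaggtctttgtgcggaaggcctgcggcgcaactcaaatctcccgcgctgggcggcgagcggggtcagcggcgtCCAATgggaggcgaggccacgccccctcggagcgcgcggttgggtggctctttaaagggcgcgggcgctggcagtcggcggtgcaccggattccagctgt
The Mcm5 window held 2 overlapping E2F-type matches and 3 CCAAT boxes, and the Rrm2 window 1 CCAAT box and neither of the other motifs. Over all 32851 windows, 2.26% held an E2F-type match, 17.9% TTTGAA and 37.4% CCAAT. Of the 11 windows found for 10 licensing genes, 7 held an E2F-type match, 1 held TTTGAA and 9 held CCAAT. These are matches of letters and no binding was measured.

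The 5 G2M cells carried the RNAs of mitosis, from the kinase that starts it to the proteins that end it. The 14 mitotic entry genes summed to 3076 CPM in them (2844 to 3325) and to 65.8 CPM in G0 cells, the 25 spindle and cytokinesis genes to 5177 and 65.3 CPM, and the 28 kinetochore and checkpoint genes to 5580 and 225 CPM. In each of these 3 lists the share of transcripts in all 5 cells lay above that of every G0 cell. With the 5 cells put in order of their total, from 30130 to 53107 transcripts, Mki67, the proliferation antigen, gave 20, 27, 21, 29 and 32 transcripts, while G0 cells gave at most 2 and 11 of 146 gave any. Top2a, the topoisomerase that untangles chromosomes, gave 29, 46, 88, 44 and 74 transcripts in the same order, against at most 8 in a G0 cell. Ube2c, the ubiquitin-conjugating enzyme of the anaphase-promoting complex, gave 28, 19, 75, 19 and 91, against at most 2. All 5 cells lay above all G0 cells for these 3 genes. The phase was called from the RNA of the same cells, so this describes the call and is not a test. All 5 cells also had totals above the G0 median of 25137 transcripts. Ube2c had the highest summed ratio, 1125 against 5.64 CPM and a log2 ratio of 6.18. Prc1, which bundles the midzone microtubules, gave 18, 19, 57, 27 and 49 transcripts and stood at 822 against 5.64 CPM. The cyclin Ccna2 gave 13, 27, 28, 30 and 34 and its kinase Cdk1 gave 14, 21, 47, 29 and 38. Pcna was also high, with 42, 48, 20, 110 and 43 transcripts, and the fork genes summed to 3123 CPM, so the G2M cells still held replication RNAs. The third and the fifth cells, with the highest Ube2c and Top2a, had S scores of -0.0317 and 0.0109, while the other 3 had S scores of 0.307 to 0.477.

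Prc1 and Ube2c had the highest G2M ratios among the same named cycle genes with a promoter entry, and their windows are printed with the same marking.
Ube2c, chr2:164769679-164769978, plus strand: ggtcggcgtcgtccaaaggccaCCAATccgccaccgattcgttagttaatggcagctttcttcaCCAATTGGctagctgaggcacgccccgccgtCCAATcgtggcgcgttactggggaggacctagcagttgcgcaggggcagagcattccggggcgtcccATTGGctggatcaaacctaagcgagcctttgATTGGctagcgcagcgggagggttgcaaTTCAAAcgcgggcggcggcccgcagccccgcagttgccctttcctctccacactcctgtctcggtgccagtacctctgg
Prc1, chr7:80294201-80294500, plus strand: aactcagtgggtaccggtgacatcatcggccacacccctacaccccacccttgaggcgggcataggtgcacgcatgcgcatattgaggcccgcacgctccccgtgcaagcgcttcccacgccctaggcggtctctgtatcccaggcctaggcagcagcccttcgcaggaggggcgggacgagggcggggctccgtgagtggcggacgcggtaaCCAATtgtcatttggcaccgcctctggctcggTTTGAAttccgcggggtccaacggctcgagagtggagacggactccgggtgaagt
Both windows held 1 TTTGAA match, with 6 CCAAT boxes in Ube2c and 1 in Prc1, and neither held an E2F-type match. Of the 25 windows found for 22 spindle and cytokinesis genes, 21 held TTTGAA and 2 an E2F-type match. Of the 26 windows for 23 kinetochore and checkpoint genes, 13 held TTTGAA and 21 held CCAAT. As above, these counts describe letters alone.

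Some genes outside the cycle lists also had high non-G0 ratios. Kpna2, an importin that carries proteins into the nucleus, stood at 262 against 30.2 CPM (log2 2.76), with 13, 9, 58, 9 and 67 transcripts in the 5 G2M cells, and 1 cell gave 34.8% of the non-G0 count. Pmf1, a kinetochore protein of the MIS12 complex, had a log2 ratio of 2.26, Hat1, which acetylates new histone H4, 2.04, and Wee1, the kinase that holds CDK1 inactive, 1.99. Topbp1, a replication initiation and checkpoint protein, reached 147 CPM in S cells and 86.6 CPM in G2M cells against 15.0 CPM in G0 cells. Tuba1b, an alpha-tubulin with near-identical copies among which reads cannot be assigned with certainty, gave 64 to 93 transcripts in the G2M cells and at most 40 in G0 cells. Stmn1, a tubulin-binding protein that is a member of the cycle and activation lists, gave 25, 15, 37, 39 and 21 in the G2M cells, against a median of 0 and a highest value of 16 in G0 cells.

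In the 12 G1 cells the summed replication RNAs were not above those of G0 cells, and the summed mitotic RNAs were somewhat above them, through 1 cell. Their licensing genes summed to 57.8 CPM (32.3 to 95.3) against 76.3 CPM in G0 cells, and their fork genes to 297 against 333 CPM. Mitotic entry genes summed to 112 CPM (74.8 to 160) against 65.8 CPM, spindle genes to 104 against 65.3 CPM, kinetochore genes to 328 against 225 CPM and chromosome condensation genes to 1084 against 735 CPM. Division genes outside the common S and G2M marker sets summed to 690 against 420 CPM. In the mitotic entry, spindle and kinetochore lists 1 G1 cell, from well A15 with 8 Mki67 transcripts, lay above every G0 cell, and the other 11 did not. Without that cell, an alternative chosen after seeing the data, the G1 log2 ratios of these 5 sums were 0.12, -0.78, -0.06, 0.18 and 0.04 in the order given, in place of 0.76, 0.67, 0.54, 0.56 and 0.72. Against the G0 cells, 68 genes (1.18%) were higher past the fold in G1 cells and 131 (2.27%) were lower. Ccnd1, the D-type cyclin that carries mitogen signals to the retinoblastoma protein, was highest in this class, at 259 CPM in G1, 84.4 in S, 38.5 in G2M and 29.0 in G0 cells. It gave 0, 2 and 26 transcripts in the lowest, median and highest G1 cell, and the highest was the cell of well D13, the 1 G1 cell placed in cluster 0, which otherwise held almost only exit-culture cells. The cell with the lowest G0 score, from well G16, gave 100 transcripts of Cdkn1a, 106 of Vim and 119 of Cryab, a small heat shock protein, and had the highest share of ribosomal protein transcripts of the 28 cells, 5.11% in the authors' table. A further G1 cell, from well G12, had 9355 transcripts. The authors' percent of mitochondrial counts was 0.375 in it, below the G0 minimum of 0.459. That measure is not the full mitochondrial share. Its G0 median was 6.98%, while the mitochondrially encoded genes listed here summed to 234863 CPM in G0 cells. Cryab stood at 670 CPM in G1 cells against 188 CPM in G0 cells, and the cell of well G16 gave 58.4% of the non-G0 count, without which the non-G0 log2 ratio was -0.62 and not 0.55.

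Among regulators of cycle entry, D-type cyclin RNAs did not differ as 1 group. Ccnd2 was abundant in every class, at 4720 CPM in G0, 4289 in G1, 5901 in S and 4001 in G2M cells, with a non-G0 log2 ratio of 0.02. Cdk4, its kinase partner, stood at 353 CPM in S and 299 in G2M cells against 166 in G0 cells. Cdkn1a, the p21 inhibitor of CDKs, gave 20, 4, 16, 18 and 79 transcripts in the G2M cells and stood at 663 CPM there, against 222 CPM in G0 cells and 195 CPM in S cells. Its G0 values ran from 0 to 112 with a median of 2, so the groups overlapped. The non-G0 log2 ratio of Cdkn1a was 0.96, and 0.47 without the G1 cell of well G16. Cdkn2c, the p18 inhibitor, gave 8, 6, 16, 8 and 13 in the G2M cells, at or above the G0 maximum of 6 in all 5. Cdkn1b, the p27 inhibitor, was lower, at 73.0 CPM in non-G0 and 111 CPM in G0 cells, with a log2 ratio of -0.54. The targets of p53, which include Cdkn1a, summed to 1099 against 780 CPM. Of 11 measured members 8 were higher, where 52.5% of all genes were. Past the fold lay 1 member in each direction, where 1.78% of all genes were higher and 0.675% lower. By class the sum was 1149 CPM in G1, 602 in S and 1688 in G2M cells. In S cells 8 of the 11 members were lower, where 49.5% of all genes were higher. Without the G1 cell of well G16, left out after seeing the data, the sum was 631 CPM in G1 cells, below that of G0 cells, and 925 CPM in non-G0 cells, a log2 ratio of 0.25 and not 0.50.

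The response to BMP differed little between the groups. The 21 genes of this list in the table summed to 3012 CPM in non-G0 and 2766 CPM in G0 cells, a log2 ratio of 0.12. Of 13 measured members 10 were higher, where 52.5% of all genes were, 3 were lower and 0 were past the fold. The direction of the sum was not stable, since it was -0.0554 within the low gate and -0.231 within the low-mid gate. The share of transcripts had medians of 0.321% in G1, 0.275% in S, 0.254% in G2M and 0.280% in G0 cells, and 1 S cell alone, at 0.0751%, lay outside the G0 range. Id1, a direct SMAD target that blocks differentiation factors, gave 7, 17, 18, 21 and 23 transcripts in the 5 G2M cells and a median of 8 in both S and G0 cells. Id3, its close relative, gave 24, 18, 22, 39 and 29 in the G2M cells and a median of 21 in G0 cells. Smad6, the inhibitory SMAD, stood at 112 and 96.5 CPM in non-G0 and G0 cells. Nog, which encodes noggin, stood at 237 and 228 CPM and was uneven between cells: 1 G2M cell gave 34 transcripts and the other 4 gave 1, 0, 0 and 1. Its log2 ratio was 0.05, and -0.28 without the S cell that gave 43 transcripts. Id4 was the member furthest apart, at 152 against 77.1 CPM, with a log2 ratio of 0.89. The Notch list, whose signal also holds stem cells in quiescence, summed to 1592 and 1586 CPM.

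**Figure D2:**
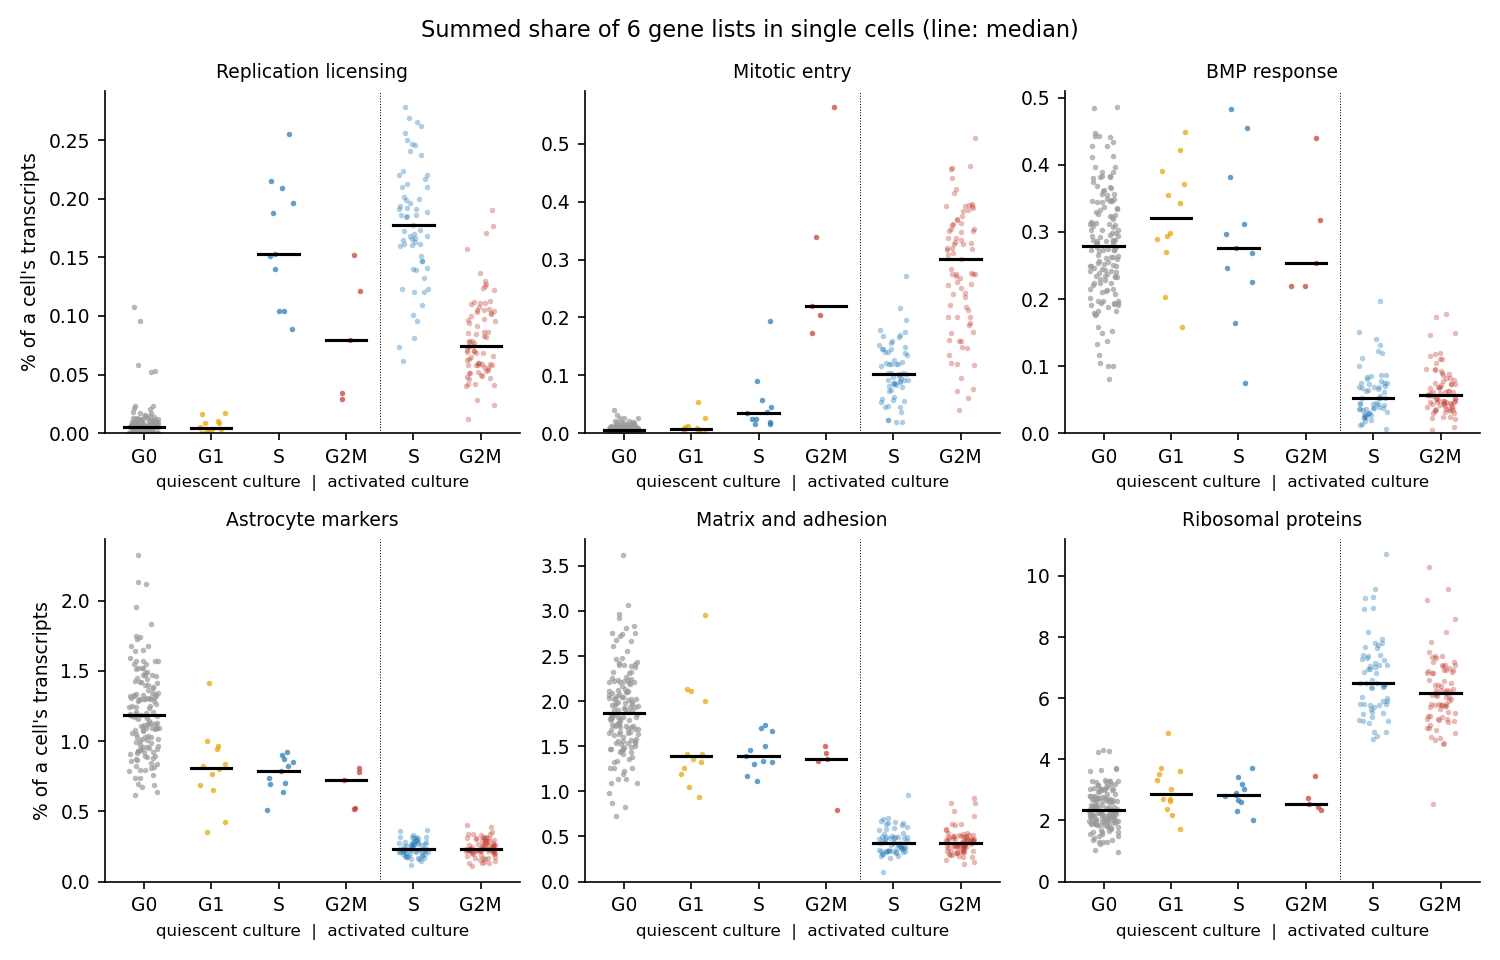
Each point is 1 cell and gives the percent of its transcripts in a gene list, with a line at the median. Quiescent-culture cells stand left of the dotted line by phase and activated S and G2M cells right of it. Licensing and mitotic entry shares of quiescent S and G2M cells overlap those of activated cells, while their BMP response share lies with the G0 cells, at medians of 0.275% and 0.254% against 0.280%.

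Astrocyte-type genes were lower in all 3 non-G0 classes. The 20 markers, many of which quiescent neural stem cells share with astrocytes, summed to 7445 CPM in non-G0 cells and 11767 CPM in G0 cells, a log2 ratio of -0.66. Of 18 measured members 16 were lower, where 52.5% of all genes were higher. Past the fold were 2 of them, Aqp4 and S100b, where 0.675% of all genes were lower past it. The median log2 ratio of the 18 was -0.78, where that of all genes was 0.02. Single-cell shares had medians of 0.812% in G1, 0.786% in S and 0.726% in G2M cells against 1.18% in G0 cells, and 0 of the 16 S and G2M cells and 1 of the 12 G1 cells lay above the G0 median. Aqp4, the water channel of astrocyte endfeet, stood at 115 against 268 CPM. It gave 19, 0, 0, 9 and 3 transcripts in the G2M cells and was seen in 3 of 12 G1 cells and 112 of 146 G0 cells. In order of S score the 11 S cells gave 23, 3, 1, 1, 7, 0, 2, 0, 9, 1 and 0, so most S cells still held it. S100b, a calcium-binding protein, stood at 156 against 325 CPM. Gfap, the intermediate filament of astrocytes, stood at 37.8 against 78.8 CPM. It gave 1, 1, 2, 0 and 7 transcripts in the G2M cells and was seen in 5 of 11 S cells and 5 of 12 G1 cells. Aldoc, the glial aldolase, gave 55, 55, 34, 125 and 63 transcripts in the G2M cells against a G0 median of 85.5, at higher totals in those cells. Outside the list, Apoe, a lipid carrier, stood at 515 against 788 CPM. The oligodendrocyte lineage list summed to 1327 against 2287 CPM and the neuronal list to 751 against 898 CPM, and their part in these differences was not tested.

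Matrix and adhesion genes summed to 13952 CPM in non-G0 and 18269 CPM in G0 cells, a log2 ratio of -0.39 for the sum, though the median of 18 measured members was -0.07, with 8 higher and 10 lower. Most of the difference in the sum was Ncan, the proteoglycan neurocan, at 6339 against 9768 CPM. Sparcl1, a secreted matrix protein of the same list, stood at 404 against 933 CPM, with a median of 2 transcripts in G1, 12 in S, 9 in G2M and 17 in G0 cells. Lysosomal genes summed to 6054 against 7186 CPM, with 13 of 49 measured members higher, where 52.5% of all genes were, 36 lower and none past the fold, and 0 of the 16 S and G2M cells lay above the G0 median. Ctsd, a lysosomal protease, stood at 195 against 286 CPM, and Lgmn, the protease legumain, at 90.6 against 160 CPM. Low ratios outside the cycle lists included those of Daam2, a formin of Wnt signalling, at 14.9 against 69.2 CPM (log2 -1.67), Selm, a selenoprotein, at 101 against 307 CPM, and Mapt, the microtubule protein tau, at 6.76 against 37.6 CPM. Ntrk2, the receptor of brain-derived neurotrophic factor, stood at 82.5 against 222 CPM, and gave 5, 1, 0, 2 and 4 transcripts in the G2M cells against a G0 median of 5. Daam2, Selm, Mapt and Ntrk2 were lower within each of the 4 gates. They were chosen for low ratios in these same cells, so the signs by gate add no support. For Mapt and Daam2 they rest on few counts.

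Activation genes were higher by a small amount. The 32 listed genes summed to 9819 against 8214 CPM, a log2 ratio of 0.26, with 21 of 27 measured members higher, where 52.5% of all genes were, and 3 past the fold, where 1.78% were, those being Stmn1 (3.10), Ccnd1 (1.87) and Nes (1.32). Nes, the stem cell filament nestin, gave 2, 5, 8, 3 and 7 transcripts in the G2M cells against a G0 median of 1. Egfr, the receptor of EGF, was low, at 10.8 against 18.4 CPM, on under 100 counts. Ribosomal protein genes summed to 28840 against 24136 CPM, with 70 of 71 measured members higher and none past the fold. Reads of ribosomal protein genes with near-identical copies cannot be assigned with certainty. Genes of ribosome assembly summed to 2028 against 1401 CPM. Cholesterol synthesis genes stood at 1164 against 1299 CPM.

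Gate and scatter were not used to set the phase. Non-G0 cells made up 10 of 43 cells in the low gate (23.3%, exact 11.8% to 38.6%), 7 of 45 in the low-mid gate (15.6%, 6.49% to 29.5%), 5 of 42 in the mid-high gate (11.9%, 3.98% to 25.6%) and 6 of 44 in the high gate (13.6%, 5.17% to 27.4%), and these intervals overlap. The classes differed in their spread: S cells fell 6, 3, 1 and 1 from the low to the high gate, G2M cells 0, 1, 2 and 2, and G1 cells 4, 3, 2 and 3. With 0 of 5, a share of G2M cells in the low gate of up to 52.2% remained possible. Forward scatter area, a measure related to cell size, had a median of 76425 units in non-G0 and 79688 units in G0 cells, a ratio of 0.959, with 63292 in S, 72633 in G1 and 93446 in G2M cells. The non-G0 values ran from 31861 to 129623 and the G0 values from 32852 to 177725. Median side scatter was 34817 against 47990 units and median autofluorescence 4412 against 5562 units. Against G0 cells of the same gate, the median ratios of non-G0 cells were 0.927 for forward scatter, 0.936 for side scatter and 0.973 for autofluorescence. The gates are cuts on autofluorescence, which bounds that ratio within a gate. The class medians of forward scatter follow the gate mix in part. Within their own gates the median ratios of forward scatter were 0.873 in G1, 0.983 in S and 1.09 in G2M cells, with 3 of 5 G2M cells above the G0 median.

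Transcripts per cell had a median of 25008 in non-G0 and 25137 in G0 cells, which hides the classes. G2M cells gave 30130, 37056, 40914, 46765 and 53107, all above the G0 median, while S cells had a median of 25672 and G1 cells one of 20623. The non-G0 ratio was 1.37 within the low gate and 0.614 within the high gate. Against G0 cells of their own gate, 4 of the 5 G2M cells lay higher, with a median ratio of 1.41. Because depth differed, shares of cells with a transcript were also taken at 11670 transcripts per cell, which left out 1 non-G0 and 17 G0 cells. Mki67 was then seen in 11 of 27 non-G0 cells (40.7%) and 6 of 129 G0 cells (4.65%), where without thinning the shares were 42.9% and 7.53%. Top2a was seen in 17 of 27 (63.0%) and 19 of 129 (14.7%), and without thinning in 75% and 28.8%.

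**Figure D3:**
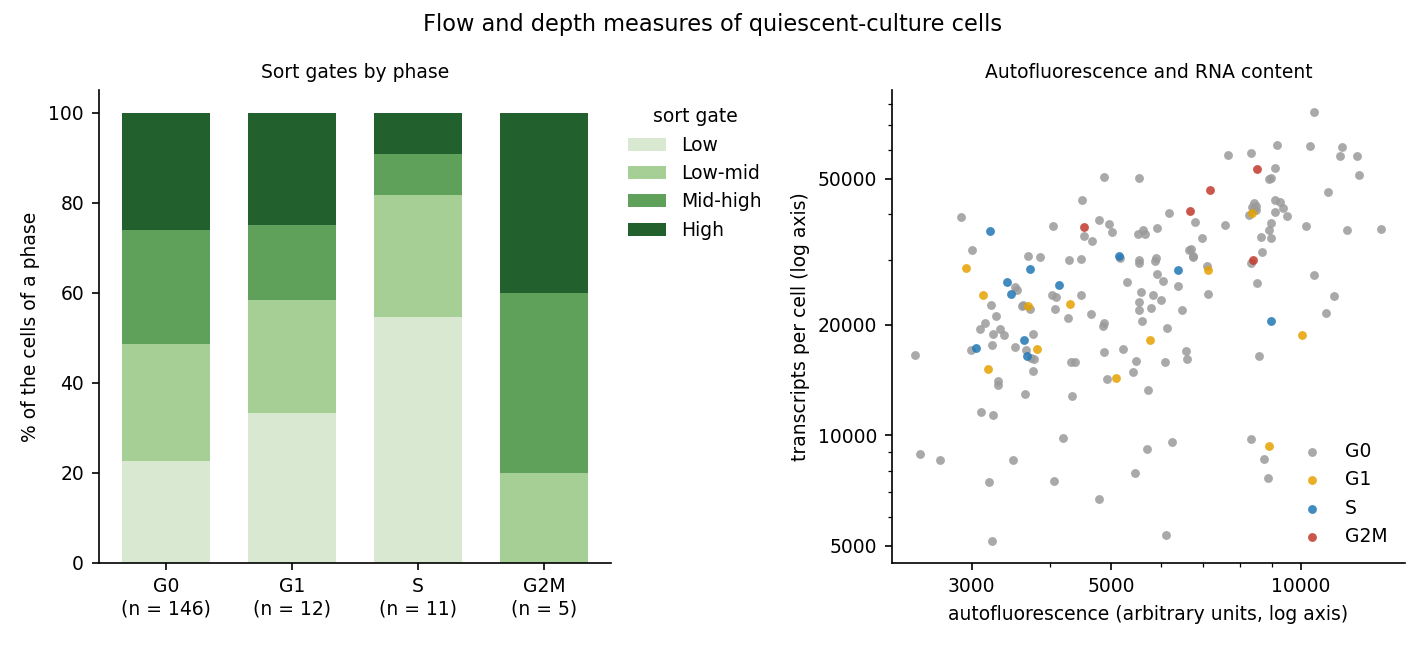
Left, the percent of cells of each phase in the 4 sort gates, with the number of cells under each bar. Right, transcripts per cell against autofluorescence in arbitrary units, both on log axes, 1 point per cell. The 5 G2M cells lie at 30130 transcripts or more, and 6 of the 11 S cells came from the low gate.

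The 16 S and G2M cells of the quiescent culture were then set beside the 140 S and G2M cells of the activated culture. The 2 cultures were on different plates, so plate and culture cannot be told apart. The phase mix differed, with 11 S and 5 G2M cells in the quiescent culture and 61 and 79 in the activated one, so division genes are given phase by phase. In S cells, licensing genes summed to 1660 CPM in the quiescent culture and 1762 CPM in the activated one, which is -0.09 on the log2 scale (-0.23 to 0.05 from counting error), and fork genes to 2852 and 3225 CPM. Mitotic genes were lower in the quiescent S cells, with a log2 ratio of -1.06 for mitotic entry, and at 782 against 1258 for spindle and 969 against 1638 for kinetochore genes. Of 36 measured division genes outside the common marker sets, 28 were lower there, with a median log2 ratio of -0.31 beside -0.21 over all genes. In G2M cells, mitotic entry genes summed to 3076 and 2886 CPM, which is 0.09 on the log2 scale (-0.03 to 0.21). Summed spindle genes were higher in the quiescent G2M cells, at 5177 against 3719 CPM. So were kinetochore genes, at 5580 against 3984, and fork genes, at 3123 against 2033. These sums were uneven over the 5 cells. The spindle share was 0.801% and 0.722% in wells E17 and H15, but its median was 0.340%, against 0.349% in activated G2M cells. The fork share in those wells was 0.127% and 0.179%, below the activated median of 0.187%, while the median of the 5 was 0.346%. Median kinetochore shares were 0.405% against 0.375%, and mitotic entry shares 0.219% against 0.300%. Of 45 measured division genes outside the marker sets, 37 were higher in the summed quiescent G2M cells, with a median of 0.34 beside -0.14 over all genes. With S and G2M cells pooled, 346 of 6786 genes (5.1%) were higher past the fold in the quiescent-culture cells and 633 (9.33%) were lower. The BMP response stood at 2953 against 607 CPM, astrocyte-type genes at 7204 against 2460 CPM and matrix genes at 13520 against 4634 CPM. Ncan, the proteoglycan, gave 214, 265, 206, 353 and 139 transcripts in the 5 G2M cells of the quiescent culture and stood at 75.2 CPM in the activated cells, a log2 ratio of 6.21. Serpinf1, a secreted serpin, gave 39, 29, 54, 22 and 8 in the G2M cells and stood at 1.10 CPM in the activated cells. Nog was listed at 0 in all 140 activated cells. That makes its sum at least 478-fold higher in the quiescent-culture cells, taking 3 counts over the activated group as the floor. The quiescent sum was uneven: wells A17, E17 and A2 gave 43, 34 and 21 transcripts, while wells E23, C4, C10 and D24 gave 0.

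Genes of growth lay the other way. Ribosomal protein genes stood at 28168 CPM in the quiescent S and G2M cells against 62447 CPM in the activated ones. All 73 of 73 measured members were lower and 48 were past the fold, where 9.33% of all genes were. Ribosome assembly genes stood at 2141 against 5247 CPM and cholesterol synthesis genes at 1064 against 3700 CPM, with 17 of 23 measured members of the latter lower past the fold. The 2 D-type cyclins were in opposite order: Ccnd2 was higher in the quiescent-culture cells, with a log2 ratio of 2.84, and Ccnd1 was lower, with one of -3.70. Mest, an imprinted hydrolase gene, had a log2 ratio of -4.44, Lgals1, the lectin galectin-1, one of -3.79, and Rab3b, a vesicle GTPase, one of -5.35.

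**Figure D4:**
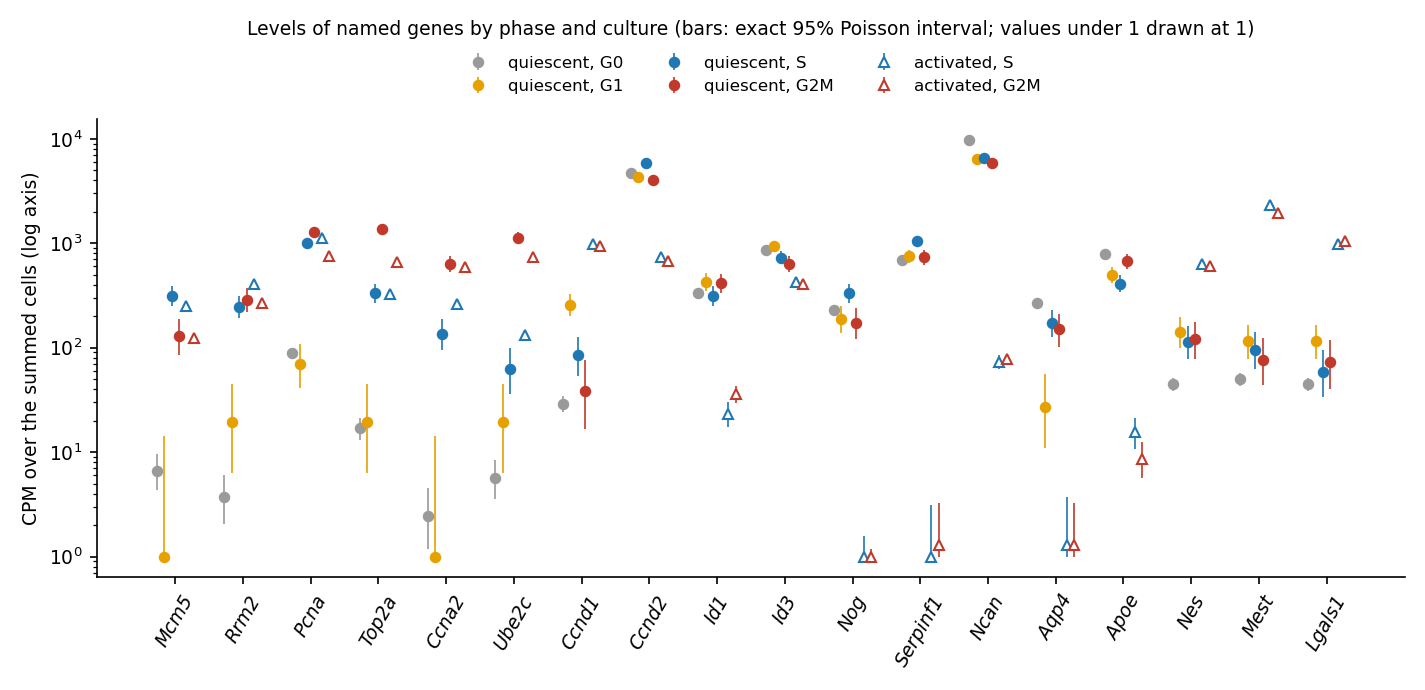
Summed CPM on a log axis of 18 genes, with exact 95% Poisson intervals for counting error, in the 4 phases of the quiescent culture (filled circles) and in S and G2M cells of the activated culture (open triangles); values under 1 are drawn at 1. Replication and mitosis genes of quiescent S and G2M cells are close to the triangles for some genes, as for Mcm5 at 312 and 253 CPM in S cells, and apart for others, while Nog, Serpinf1 and Ncan lie nearer the quiescent G0 cells than the triangles.

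In the 24 h exit culture, which shared a plate with the quiescent one, 13 of 151 cells (8.61%) were non-G0, again a share of cells sampled by gate. There, against that culture's own G0 cells, 96 of 4283 genes (2.24%) were higher and 115 (2.69%) lower. The mitotic entry log2 ratio was 4.51 beside 4.06 in the quiescent culture, and that of division genes outside the marker sets 2.89 (2.77 to 3.00) beside 3.48 (3.40 to 3.57). The BMP response ratio was -0.95 there, at 406 against 782 CPM, beside 0.12 in the quiescent culture, and the astrocyte-type ratio was -1.06 beside -0.66. Whether the 2 cultures differ was not tested, since each is 1 culture.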

How the data were processed

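Per the labels, cells of the quiescent and 24 h exit cultures were sorted singly into 1 plate of 384 wells and those of the activated and 48 h exit cultures into another, and both plates use the same 384 well barcodes. The submitters' processing notes name Seurat 4.1.1, R 4.2.0, BWA 0.7.15 and the builds mm10 and hg19, with no role; the counter, the cell filter and the gene lists of the phase scores are not given in the sources used here. The authors deposited an expected count per gene and cell, a molecule count corrected for molecules that share 1 of 4096 identifiers. Inverting the correction gave whole identifiers to within 5e-05, and transcript numbers of single cells are these. A second table by the authors has, per the file headers, each cell's total count, genes seen, percent of mitochondrial and of ribosomal protein counts, intensity of autofluorescence and scatter, gate, cluster, phase and a score for each of S, G2M and G0.

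Expected counts of the 15364 genes were summed per group, unrounded, and divided by the group's total. Log2 ratios of genes had 10 CPM added and those of list sums had none. Intervals are exact Poisson, exact conditional binomial or exact binomial (Clopper-Pearson), at 95%. No test was made, since each of the 4 states was 1 culture. Wells outside the per-cell table, 128 in all, were left out, and the whole-plate tables with their spike-in counts were not used here. No doublet caller was run on singly sorted cells. Named genes were, among genes with at least 100 counts and seen in 25% of cells of the group where they were higher, with predicted, ribosomal protein and mitochondrial genes set aside, the 10 highest and 10 lowest ratios outside the cycle lists, the 10 highest inside them, up to 3 members per list, a fixed set of stem cell genes, and 8 in each direction against the activated cells. Some genes that this rule names are summarised only in their lists. Some are not reported here. Of the 124 genes, 81 had a RefSeq promoter window. The members and all 35 gene lists were chosen with earlier results of these data known. Scripts were tested on simulated data. Sums and intervals were made with scipy 1.17.1, pandas 2.3.3 and numpy 2.4.6 in Python 3.11.15, figures with matplotlib 3.10.9, with edgeR 4.0.16 under R 4.3.3 for TMM factors as an alternative scaling only. Other alternatives changed the amount added, the filter, the weighting and depth of cells, the totals, the gates and the cells included.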

Additional observations from a re-analysis of the deposited data

How the results depend on the processing

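The 28 cells are cells of 1 culture and the G2M class is 5 cells, so depth and cell number limit what can be read from genes under about 100 counts. The numbers of genes past the fold (103 higher, 39 lower) moved with the settings. They were 97 lower with 1 CPM added, 56 higher and 6 lower with 50 CPM added, 106 lower with cells thinned to 1 depth, 59 lower with totals without mitochondrial, ribosomal protein and Rn45s counts, 319 higher with a minimum of 20 counts, 14 higher and 13 lower with a minimum of 400, and 164 higher and 88 lower for S and G2M cells alone. Within gates they were 274 lower (low), 216 higher and 376 lower (low-mid), 258 and 381 (mid-high) and 269 and 329 (high), on fewer cells. TMM scaling moved the median of all genes by -0.09.

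The licensing sum (3.5) was 4.32, 2.93 and 2.66 within the low-mid, mid-high and high gates and 4.09 for S and G2M cells alone. The mitotic entry sum (4.06) was 2.43, 3.42, 5.11 and 4.56 within the 4 gates, 3.46 as a mean over cells, 3.56 after thinning, 4.63 for S and G2M cells alone and 3.80 without the cell with the most transcripts. A minimum of 400 counts left no member of either list and gave no value. The astrocyte sum (-0.66) was -0.73, -0.82 and -0.57 within the low, low-mid and high gates, -0.77 with TMM, -0.71 for S and G2M cells alone and -0.62 without the 2 G1 cells of lowest G0 score, an alternative chosen after seeing the data, as were leaving out cells near a boundary and the G1 cell of well A15 or G16. Without A15 the G1 spindle and kinetochore sums (0.67 and 0.54) turned to -0.782 and -0.0633, and without G16 the G1 p53 target sum (0.56) turned to -0.305. The BMP response sum (0.12) was -0.0554 and -0.231 within the low and low-mid gates, 0.425 within the mid-high gate, 0.0539 after thinning, 0.0157 with TMM and 0.0374 with G0 cells matched by gate and total. Within the mid-high gate the ribosomal protein sum and Aen also turned sign, to -0.0155 and -0.0153. The ratio of median transcripts (0.995) was 1.37 and 0.614 within the low and high gates. With 1 CPM added, 187 genes were lower in the 24 h exit comparison and 978 against activated cells. Among the remaining counts, leading lists and ratios, 94 values stayed within their interval or limit. Among single genes and other lists, 1640 did so, 549 moved and none but the 5 named turned sign from past the fold or their interval. Cryab, which was not past the fold, is not among the 5, though it turned sign without the cell of well G16, as given above. No paired analysis was possible because each state was 1 culture.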
